A study of Mus musculus with 24 samples.

Results

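The genes described here are 29 genes of sterol and fatty acid synthesis, most of them known targets of the SREBP transcription factors, in mouse bone marrow-derived macrophages exposed to interleukin-4 (IL-4). They were chosen by name from the pathway, and all 29 reached a CPM (reads scaled to library size) of 1 in at least 1 group. The tables list 23420 genes, of which 12294 reached that level. RNA was sequenced in 24 libraries, in 12 groups of 2, from marrow cells of male C57BL/6 mice aged 3 months that had grown for 6 days with M-CSF. In the antagonist experiment, cells had IL-4 together with GW9662 (a blocker of the ligand pocket of PPARγ), IL-4 alone, GW9662 alone, or the DMSO and ethanol vehicle for 24 h. In the memory experiment, cells labelled PpargKO (called KO below) and wild-type (WT) cells were each taken in 4 states. Restimulated cells had IL-4 for 24 h, a washout of 24 h, and IL-4 again for 3 h. Pretreated cells had the same 24 h of IL-4 and washout, but no second exposure. First-exposed cells had IL-4 for 3 h only, and unstimulated cells had none. All 12 groups shared the strain, age and M-CSF differentiation, and the IL-4 dose is labelled as 20 ng per µl. The labels do not say which part of Pparg the KO cells lack, how it was removed, or whether a group's 2 samples are from different mice. The p-values below therefore measure only the spread between these libraries, which may be technical.

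SREBP2 is held in the endoplasmic reticulum by SCAP and the INSIG proteins when membranes are rich in sterol. When sterol runs low it moves to the Golgi, is cut, and its released part switches on nearly all enzymes from acetyl-CoA to cholesterol as well as INSIG1, which brakes the system. SREBP1 acts by the same route and mainly drives fatty acid synthesis and desaturation; liver X receptors (LXR), which sense oxidised sterols, raise its transcription. Macrophages take up much cholesterol from dead cells, so this pathway and cholesterol efflux are closely balanced in them.

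The promoters of 23 of the 29 genes were found by symbol in a RefSeq table (GRCm38.p6), in windows of 300 bases from 250 before to 50 after the transcript start. Sc4mol was found there under its current name Msmo1. On either strand, the sterol regulatory element TCACNCCAC occurred in 1 of the 23 member promoters (4.35%), against 388 (1.44%) of all 27025 genes in that table. The looser form TCACNNCAC, which contains the first motif, was found in 4 members (17.4%) and in 1180 genes (4.37%). The NF-Y box CCAAT was present in 19 members (82.6%) and 11096 genes (41.1%). The GC box GGGCGG was also present in 19 members (82.6%), and in 10324 genes (38.2%). The E-box CACGTG was found in 4 members (17.4%) and 2187 genes (8.09%). These matches are a description of letters and carry no test. The 180 bases before the start are shown 5′ to 3′ for 3 members that hold the sterol element (Hmgcs1) or its looser form (Hsd17b7 and Sc4mol) beside NF-Y boxes and that are described below, with capitals for either form and for CCAAT; a box on the other strand reads ATTGG. Hmgcs1 (chr13:119690171-119690350, plus strand) has TCACCCCAC 137 bases before the start. Hsd17b7 (chr1:169969206-169969385, minus strand) has the looser form TCACCTCAC 117 bases before the start, and Sc4mol (chr8:64733579-64733758, minus strand) has the looser form TCACTGCAC at 92 bases, where it overlaps a CCAAT. Dhcr7 also held the looser form, 130 bases before its start, with no CCAAT in the stretch.
Hmgcs1: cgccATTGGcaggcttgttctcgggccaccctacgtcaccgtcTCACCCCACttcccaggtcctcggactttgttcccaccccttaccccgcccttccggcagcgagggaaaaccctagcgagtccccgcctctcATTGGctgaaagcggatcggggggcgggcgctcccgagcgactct
Hsd17b7: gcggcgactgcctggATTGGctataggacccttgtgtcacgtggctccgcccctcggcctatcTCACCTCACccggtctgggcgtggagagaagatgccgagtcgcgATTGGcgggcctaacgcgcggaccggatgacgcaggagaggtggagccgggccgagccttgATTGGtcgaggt
Sc4mol: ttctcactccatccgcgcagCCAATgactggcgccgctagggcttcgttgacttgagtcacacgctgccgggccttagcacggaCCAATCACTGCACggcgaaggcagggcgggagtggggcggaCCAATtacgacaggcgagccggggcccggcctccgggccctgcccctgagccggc

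The deposited columns are means of both libraries of a group. The 2 libraries were separated by the size of their read steps (99.5% of 171808 values above 0 had 1 solution, and every value of the 29 genes was among them), and are given below as the deeper and then the shallower library, since their replicate numbers are not known. Scaled library sizes ran between 16573275 and 28673579 for the antagonist libraries, where 3 reads (the limit that a count of 0 allows) equal 0.105 to 0.181 CPM. The memory libraries had sizes of 5699254 to 16431068, and 3 reads equal 0.183 to 0.526 CPM there. Libraries were of 2 counting kinds: 116 genes that share at least 50% of their 50-base words with other genes were low in 14 libraries and high in 10. All 8 KO libraries were of the low kind and 7 of 8 WT memory libraries of the high kind. In the 4 groups that mix kinds, 5 members were lower in the low-kind library by more than 0.5 (log2, median): Idi1 by 2.37, Acat2 by 1.09, Acaca by 0.96, Fdps by 0.70 and Scd1 by 0.60. They are called counting-sensitive below. The restimulated WT libraries differed from each other far more than any other pair, with an SD between libraries of 0.897 over genes (log2) against 0.127 to 0.434 elsewhere. Their 6 fibroblast markers summed to 1083 and 37.5 CPM, against less than 10 CPM in every other library, and the fit gave this group a weight of 0.079 where a typical group has 1. All 8 macrophage markers were at 1 CPM or more in every library, but Lyz2 averaged 14.5 to 41.8 CPM in the KO groups and 21966 to 30727 CPM in the WT groups of the same experiment. Pparg averaged 21.1 to 40.9 CPM in KO groups and 20.8 to 34.0 CPM in WT groups; with the deleted part not stated, these reads do not check the label. In such bulk samples, fewer cells of a type and less RNA per cell cannot be told apart.

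Below, each difference is log2 of the ratio of the authors' group means after adding 1 CPM to each mean, a scale on which changes of weakly expressed genes look smaller. The SE and Benjamini-Hochberg adjusted p beside it belong to the limma-trend estimate, which averages the log2 values of the libraries, across all genes tested. Both estimates can part where libraries of a group lie far apart. For Idi1 the limma estimate was −1.22 after WT washout (ratio −0.50) and −2.23 for pretreated KO over WT cells (ratio −2.95). A gene "rose" or "fell" where the adjusted p was under 0.05. Comparisons that use the same group (for example unstimulated WT cells, in both the first exposure and the washout) share those libraries. Where groups are said not to overlap, this describes 2 libraries against 2 and is common. It held for 6 of 27 members tested in GW9662 over vehicle, where none was called, and for 15 of 28 in the first exposure of KO cells. Its share over all genes was not computed.

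After 24 h of IL-4, 5 members rose and none fell of 29 tested against vehicle, where 9.82% of all genes rose and 8.39% fell. With GW9662 in both arms, 14 members rose and 2 fell of 28 tested, against 26.3% of all genes that rose and 25.1% that fell. The median member difference was 0.38 without GW9662 (−0.01 over all genes) and 0.35 with it (0.02 over all genes). The 4 groups of this comparison share no library between arms. Sqle, Mvd, Dhcr7, Nsdhl and Scd1 rose in both arms.

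Among the early steps, the clearest gene was Sqle, squalene epoxidase, which commits squalene to the sterol ring. It stood at 22.7 and 23.2 CPM with IL-4, against 10.5 and 10.2 CPM with vehicle, and at 21.4 and 24.4 CPM with IL-4 plus GW9662, against 11.2 and 10.1 CPM with GW9662. All 4 IL-4 libraries were above all 4 others, by 1.07 (SE 0.21, limma adjusted p = 0.012) and by 1.04 (SE 0.09, adjusted p = 6.5e-05). Mvd, which makes isopentenyl pyrophosphate, was at 37.0 and 64.1 CPM with IL-4, against 19.3 CPM in both vehicle libraries, and at 43.6 and 42.5 CPM with IL-4 plus GW9662, against 19.1 and 22.3 CPM with GW9662. The IL-4 libraries lay far apart but both above vehicle (1.34, SE 0.26, adjusted p = 0.013), and the arm with GW9662 gave 1.02 (SE 0.11, adjusted p = 0.00021). Hmgcs1, the cytosolic HMG-CoA synthase, had 37.9 and 40.4 CPM with IL-4 plus GW9662, against 25.6 and 22.6 CPM with GW9662, and rose by 0.68 (SE 0.10, adjusted p = 0.0011). Without GW9662 it had 40.2 and 25.5 CPM with IL-4, against 24.4 and 22.7 CPM with vehicle; the groups did not overlap, but the difference of 0.47 (SE 0.24) missed the threshold (adjusted p = 0.27). Counting-sensitive Fdps, farnesyl diphosphate synthase, had 12.9 and 21.9 CPM with IL-4 plus GW9662 and 7.26 and 6.67 CPM with GW9662 (1.21, SE 0.23, adjusted p = 0.0043). Its IL-4 libraries (17.6 and 15.0 CPM) were also above vehicle (7.29 and 12.3 CPM), at 0.68 (SE 0.53) with an adjusted p of 0.42. Between low-kind libraries Fdps differed by 0.81 for IL-4 plus GW9662 over GW9662. Idi1 and Acat2, both counting-sensitive, differed between the libraries of each group that mixes counting kinds, and Idi1 had 0.53 and 6.63 CPM with IL-4 plus GW9662 and 0.54 and 0.36 CPM with GW9662, where both libraries are of the low kind.

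Of the later sterol steps, Dhcr7, the reductase that finishes cholesterol, had 50.6 and 70.4 CPM with IL-4, against 32.6 and 28.6 CPM with vehicle (0.96, SE 0.19, adjusted p = 0.014). With GW9662 in both arms it had 54.8 and 56.5 CPM with IL-4, against 32.7 and 34.3 CPM without (0.71, SE 0.08, adjusted p = 0.00029). Nsdhl, which removes methyl groups at the 4 position with Sc4mol, was at 28.5 and 26.5 CPM with IL-4, against 16.1 and 11.8 CPM with vehicle (0.93, SE 0.26, adjusted p = 0.044). In the GW9662 arm it was at 28.0 and 26.8 CPM, against 15.0 and 15.7 CPM (0.80, SE 0.11, adjusted p = 0.00079). Neither gene's groups overlapped. The rest of this block moved less in the GW9662 arm. Lss, Cyp51 and Ebp rose by 0.29 to 0.38, and Sc4mol, at 34.5 and 37.2 CPM against 30.9 and 26.7 CPM, missed the threshold (0.31, SE 0.11, adjusted p = 0.054). Sc5d, the lathosterol desaturase, went the other way. It had 6.74 and 6.54 CPM with IL-4 plus GW9662, against 12.2 and 10.7 CPM with GW9662, and fell by 0.70 (SE 0.10, adjusted p = 0.00099).

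Of the 3 regulator and transport genes, 2 rose in the GW9662 arm and 0 were called against vehicle. Srebf2, which encodes SREBP2, rose by 0.43 (SE 0.11, adjusted p = 0.015), and Insig1 by 0.33 (SE 0.10, adjusted p = 0.030), in the GW9662 arm. Stard4, a sterol carrier, gave 0.10 (SE 0.10, adjusted p = 0.44) there. For IL-4 over vehicle, Srebf2 differed by 0.72 between low-kind and 0.50 between high-kind libraries. The same values were −0.17 and 0.37 for Insig1 and −0.26 and 0.34 for Stard4. Of the fatty acid genes, Fasn, fatty acid synthase, had 93.0 and 77.7 CPM with IL-4 plus GW9662 and 56.1 and 61.6 CPM with GW9662, and rose by 0.53 (SE 0.11, adjusted p = 0.0059). Fads1, the delta-5 desaturase, had 146 and 135 CPM, against 176 and 175 CPM, and fell by 0.32 (−0.32, SE 0.10, adjusted p = 0.025). Scd1, stearoyl-CoA desaturase, was nearly silent without IL-4: 79 reads were found in both IL-4 libraries together and 3 in both vehicle libraries, a CPM ratio of 31.4 (exact 95% interval 10.4 to 155, counting error only). With GW9662 the reads were 68 and 3, a ratio of 21.8 (7.15 to 108). In CPM these were 2.71 and 1.21 with IL-4, 0 and 0.18 with vehicle, 1.20 and 1.98 with IL-4 plus GW9662, and 0.09 and 0.05 with GW9662. Adjusted p for Scd1 was 0.046 and 0.00061. Acaca, the counting-sensitive acetyl-CoA carboxylase, had 10.6 and 19.2 CPM with IL-4 plus GW9662, against 5.85 and 6.21 CPM with GW9662 (1.18, SE 0.28, adjusted p = 0.011). Both GW9662 libraries are of the low kind, and between low-kind libraries the difference was 0.72; the call was lost without the shallower library of cells with both agents, without group weights and by limma-voom. In the arm without GW9662 it had 21.3 and 8.87 CPM with IL-4 and 5.72 and 10.4 CPM with vehicle (0.83, SE 0.63, adjusted p = 0.47). Macrophage markers summed to 17818 to 17858 CPM with IL-4 and 39091 to 39265 CPM with vehicle, and to 17553 to 17616 CPM with IL-4 plus GW9662 and 37828 to 37848 CPM with GW9662. Lyz2 could not be separated in these groups and entered both libraries at its group mean, which narrows these ranges. It made up much of the sums, with 6409 CPM with IL-4, 23273 CPM with vehicle, 6575 CPM with IL-4 plus GW9662 and 21451 CPM with GW9662. Neutrophil markers, all 6 in the table at 1 CPM or more, summed to 201 to 286 CPM in the 4 libraries with IL-4 and 361 to 523 CPM in the 4 without. T cell markers summed to 1.33 to 1.79 CPM with IL-4 and 33.0 to 39.3 CPM without, with 1 of the 4 in the table at 1 CPM or more. Adipocyte markers summed to 4.502 to 5.70 CPM with IL-4, where 1 of 4 reached 1 CPM, and 0 to 0.051 CPM without. Dividing-cell markers summed to 291 to 471 CPM with IL-4, 134 to 164 CPM with vehicle, 319 to 469 CPM with IL-4 plus GW9662 and 125 to 138 CPM with GW9662. In the GW9662 arm 9 of 10 of them rose, where 26.3% of all genes rose. In each group that mixes kinds the low-kind library had the lower sum, and both GW9662 libraries are of the low kind. The part of any of these marker lists in the results, and of counting kind in these sums, was not tested. The count of 5 against vehicle became 0 without the shallower IL-4 library, 2 without the deeper one and 3 without the shallower vehicle library. It became 10 with counting kind in the fit, and in the GW9662 arm 16 became 10 without the shallower library of cells with both agents.

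**Figure D1:**
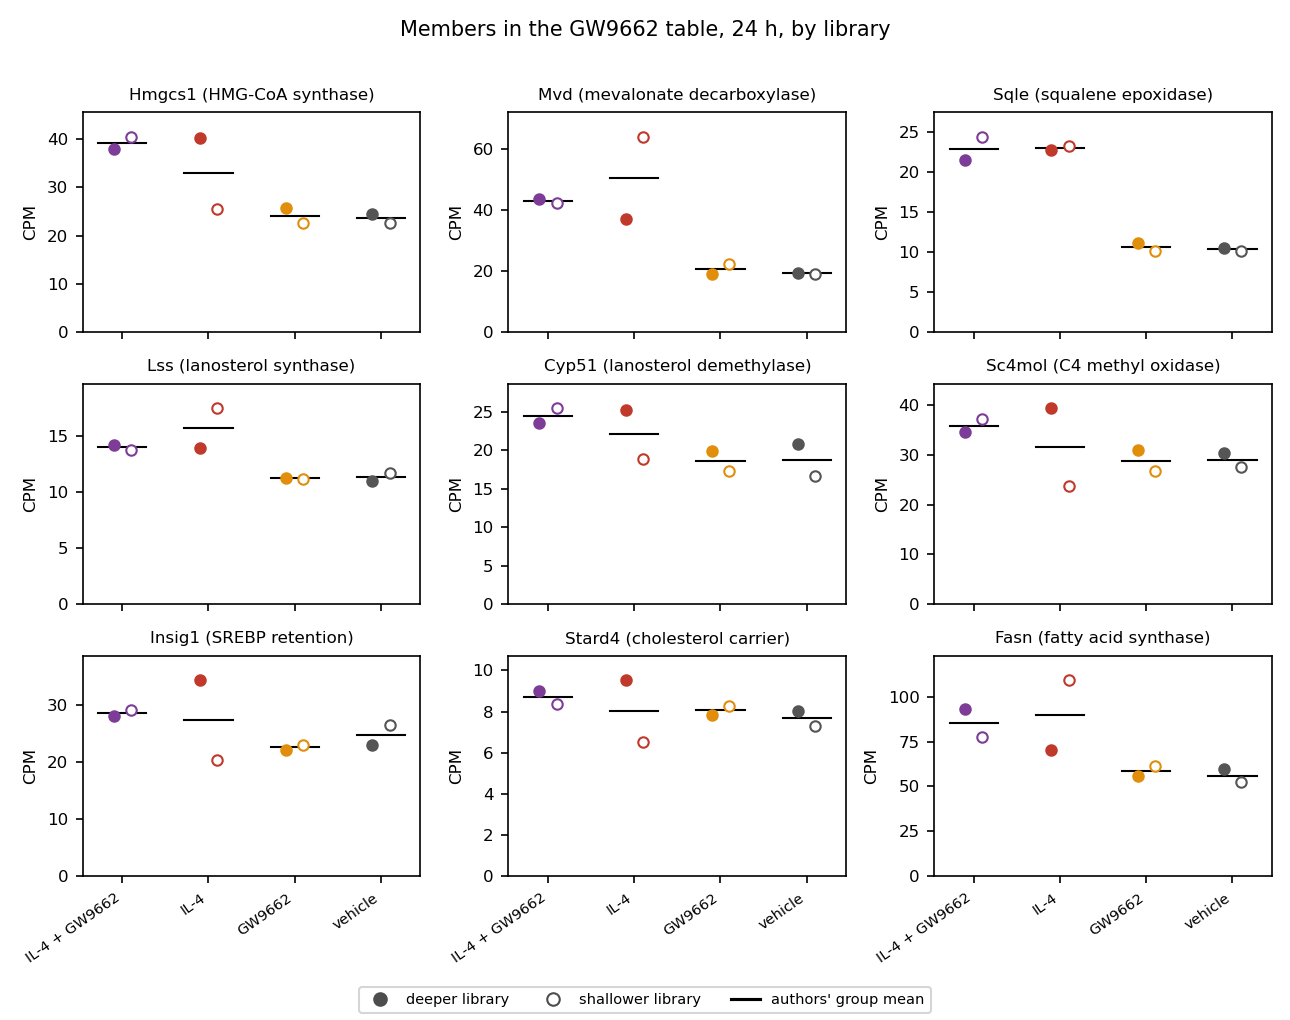
CPM (linear axes from 0) of 9 members in the 4 groups of the antagonist experiment, with a filled point for the deeper library, an open point for the shallower library and a line at the authors' mean. In the panels for Sqle, Mvd and Fasn all 4 libraries with IL-4 lie above all 4 libraries without it, while for Hmgcs1, Sc4mol and Insig1 both libraries with IL-4 alone lie far apart.

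GW9662 against vehicle gave 0 member calls of 27 tested, and 0% of all genes were called in either direction by limma-trend; at an unadjusted p under 0.05 there were 89 genes higher, 167 lower and 0 members, and limma-voom also called 0 members. Its highest members were Sc5d (12.2 and 10.7 CPM, against 10.4 and 9.60 CPM; 0.18, SE 0.11) and Hsd17b7 (0.17, SE 0.16). Its lowest were counting-sensitive Acat2 (−0.58, SE 0.38) and Idi1 (−1.34, SE 0.76), which turned to 0.01 and 0.10 with counting kind in the fit. IL-4 plus GW9662 against IL-4 gave 0 calls of 29 members and 0% of all genes by limma-trend, with 1 gene and 0 members at an unadjusted p under 0.05 and 0 members by limma-voom. Differences there ran from −0.37 (SE 0.31) for Tm7sf2 and −0.23 (SE 0.26) for Mvd up to 0.25 (SE 0.34) for Elovl6 and 0.29 (SE 0.34) for Hsd17b7. The test of the IL-4 response with minus without GW9662 called 0 of 29 members and 0% of genes by limma-trend, with 11 higher and 2 lower genes and 0 members at an unadjusted p under 0.05 and 0 members by limma-voom. The IL-4 group carried a weight of 0.211 in these fits, and the SE of Sqle in the difference (−0.04, SE 0.23) shows the width of what remains possible.

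The first 3 h of IL-4 in KO cells raised 5 members and lowered 5 of 28 tested, where 21.5% of all genes rose and 22.7% fell. In WT cells 9 rose and 3 fell of 28, where 24.8% of all genes rose and 25.1% fell. The KO shares lie near the background. Fasn, Sqle, Mvd, Hsd17b7 and Acly rose in both genotypes, and Insig1, Stard4 and Fads1 fell in both.

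Fasn had 244 and 245 CPM in first-exposed KO cells, against 103 and 107 CPM in unstimulated KO cells, and 286 and 277 CPM in first-exposed WT cells, against 117 and 129 CPM in unstimulated WT cells. It rose by 1.21 (SE 0.07, adjusted p = 9.1e-10) in KO and by 1.19 (SE 0.07, adjusted p = 8.7e-10) in WT cells. Fads1 was lower in every exposed library, at 121 and 107 CPM against 212 and 202 CPM in KO cells (−0.85, SE 0.07, adjusted p = 4.4e-08) and at 122 and 115 CPM against 202 and 210 CPM in WT cells (−0.80, SE 0.07, adjusted p = 7.3e-08). Acly, which makes cytosolic acetyl-CoA from citrate, rose by 0.17 (SE 0.06, adjusted p = 0.037) in KO and by 0.23 (SE 0.06, adjusted p = 0.0044) in WT cells.

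Sterol steps that rose began with Sqle, at 56.0 and 59.0 CPM against 38.4 and 43.1 CPM in KO cells (0.48, SE 0.09, adjusted p = 0.00025) and 75.1 and 70.9 CPM against 50.9 and 46.3 CPM in WT cells (0.58, SE 0.09, adjusted p = 3.3e-05). Mvd had 27.6 and 27.9 CPM, against 18.1 and 15.6 CPM, in KO cells (0.69, SE 0.14, adjusted p = 0.00056) and 37.4 and 29.7 CPM, against 17.1 and 19.0 CPM, in WT cells (0.86, SE 0.13, adjusted p = 5.7e-05). Hsd17b7, which reduces the 3-keto group during demethylation and whose promoter is printed above, had 11.8 and 14.2 CPM against 7.03 and 7.58 CPM in KO cells (0.75, SE 0.13, adjusted p = 0.00025). In WT cells it had 13.1 and 13.4 CPM against 8.14 and 8.94 CPM (0.58, SE 0.13, adjusted p = 0.0016). No library of an exposed group overlapped its unstimulated group for these 3 genes. Lss, lanosterol synthase, reached the threshold in WT cells, with 28.4 and 26.9 CPM against 21.8 and 19.4 CPM (0.41, SE 0.11, adjusted p = 0.0050), and had 18.9 and 16.3 CPM against 15.2 and 16.1 CPM in KO cells (0.16, SE 0.11, adjusted p = 0.28). The other WT calls were Dhcr7, Cyp51 and Sc4mol, higher by 0.19 to 0.35.

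Insig1, the sterol-dependent brake on SREBP processing, had 27.4 and 29.7 CPM in first-exposed KO cells, against 48.1 and 43.8 CPM in unstimulated KO cells, and fell by 0.67 (SE 0.09, adjusted p = 8.5e-06). In WT cells it had 49.6 and 44.5 CPM, against 65.0 and 70.2 CPM (−0.51, SE 0.08, adjusted p = 9.4e-05). Stard4 had 25.6 and 27.7 CPM, against 31.9 and 31.5 CPM, in KO cells (−0.24, SE 0.09, adjusted p = 0.039) and 31.1 and 29.8 CPM, against 39.4 and 39.9 CPM, in WT cells (−0.37, SE 0.09, adjusted p = 0.0024). Both genes were lower in every exposed library. Hmgcs1, with its sterol element shown above, did not follow Sqle and Mvd: it had 36.5 and 37.5 CPM against 44.1 and 45.0 CPM in KO cells and fell there by 0.26 (SE 0.09, adjusted p = 0.025), a call that was lost when any 1 of the 4 libraries was left out. In WT cells its 65.3 and 57.1 CPM overlapped the 68.5 and 63.4 CPM of unstimulated cells (−0.11, SE 0.09, adjusted p = 0.31). Sc5d had 17.9 and 18.8 CPM against 24.7 and 23.2 CPM in KO cells (−0.37, SE 0.10, adjusted p = 0.0067). Largest without a call were Idi1 (0.45, SE 0.45) and Acaca (0.28, SE 0.20) in KO cells, and Me1 (−0.43, SE 0.19) and Acaca (0.38, SE 0.19) in WT cells. The test of KO minus WT response called 0 of 28 members and 0% of genes by limma-trend, with 0 members, 652 higher and 773 lower genes at an unadjusted p under 0.05 and 0 members by limma-voom. Member calls numbered 6 in both genotypes without group weights and 5 in both by limma-voom, against 10 in KO and 12 in WT cells here, and KO calls numbered 6 without the deeper first-exposed KO library. Fasn, Fads1, Sqle and Insig1 kept their calls in both genotypes under every alternative run. The kind term could not change these estimates, since the KO libraries are all of the low kind and those of both WT groups all of the high kind.

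**Figure D2:**
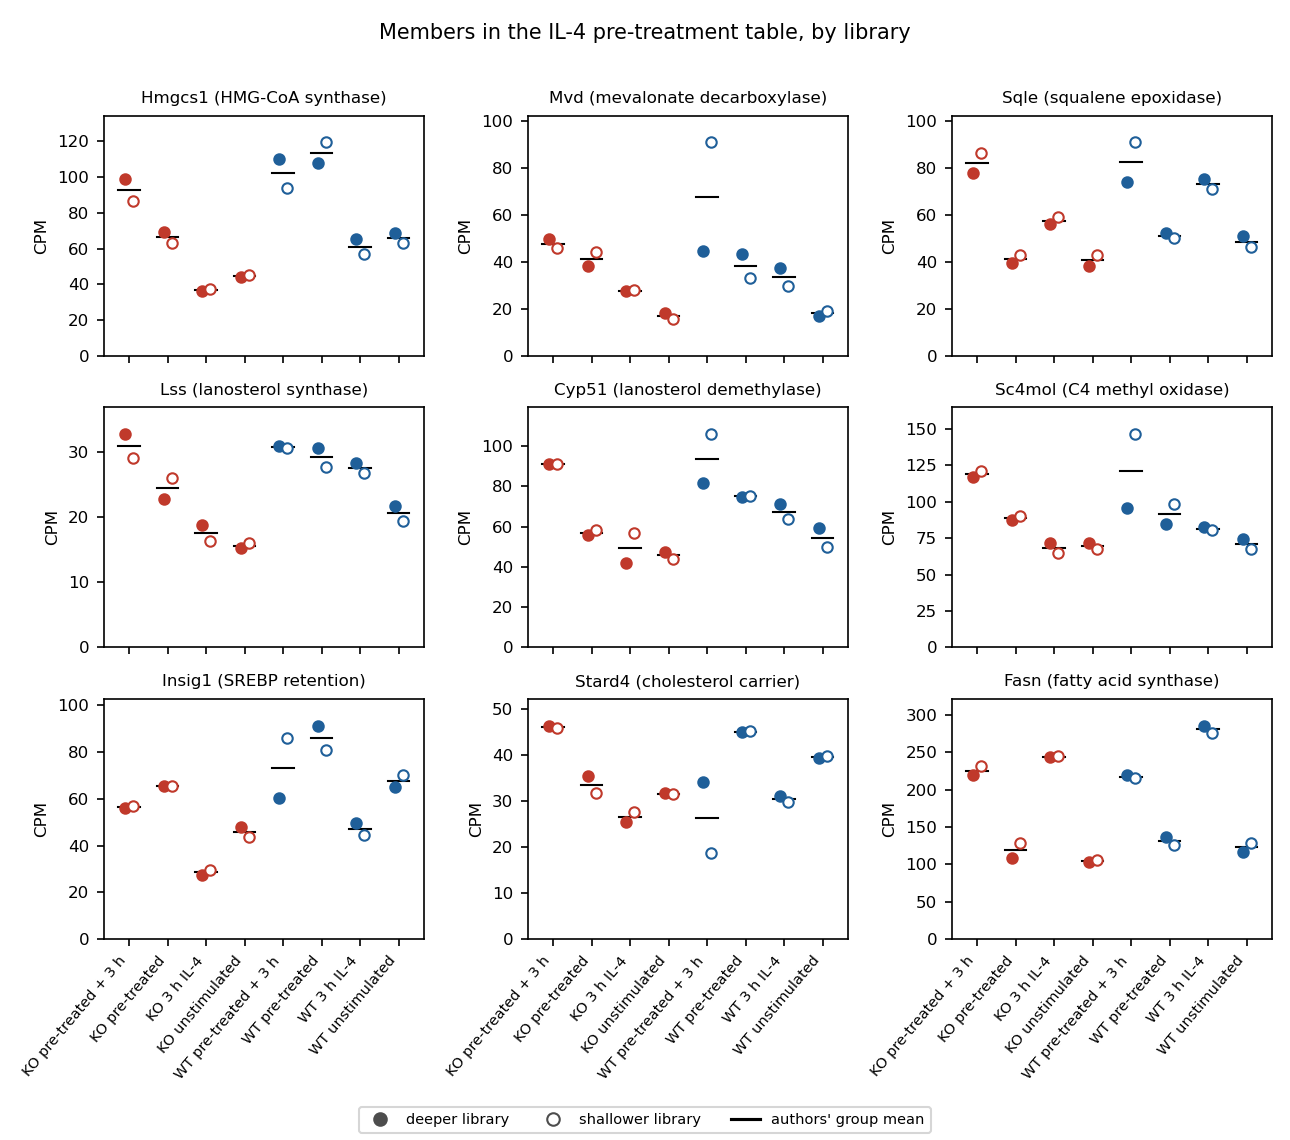
CPM (linear axes from 0) of 9 members across the 8 groups of the memory experiment, with a filled point for the deeper library, an open point for the shallower library and a line at the authors' mean; KO groups are red and WT groups blue. Fasn is high in every group that had IL-4 in the last 3 h, Insig1 is lowest in the first-exposed group of each genotype, and the restimulated WT libraries lie apart for Mvd, Sc4mol, Insig1 and Stard4.

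One day after IL-4 was washed out, 8 members were higher and none lower in pretreated than in unstimulated KO cells, of 28 tested, where 9.58% of all genes were higher and 10.5% lower. In WT cells 8 were higher and none lower of 29, where 7.34% of all genes were higher and 6.99% lower. The median member difference was 0.22 in KO (−0.02 over all genes) and 0.17 in WT cells (−0.01 over all genes). Mvd, Hmgcs1, Lss, Nsdhl, Sc4mol and Insig1 were among the higher members in both genotypes. Fasn and Fads1, which rose and fell at 3 h in both genotypes, gave 0.18 (SE 0.07, adjusted p = 0.11) and −0.01 (SE 0.07) in KO and 0.10 (SE 0.09) and −0.07 (SE 0.09) in WT cells at this time.

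Mvd had 38.0 and 44.0 CPM in pretreated KO cells, against 18.1 and 15.6 CPM in unstimulated KO cells (1.23, SE 0.14, adjusted p = 9.1e-06). In WT cells it had 43.5 and 32.9 CPM, against 17.1 and 19.0 CPM (1.04, SE 0.17, adjusted p = 0.00055). Hmgcs1, at the level of unstimulated cells or below at 3 h, was now higher, with 69.5 and 63.1 CPM against 44.1 and 45.0 CPM in KO cells (0.56, SE 0.09, adjusted p = 3e-04) and 108 and 119 CPM against 68.5 and 63.4 CPM in WT cells (0.78, SE 0.11, adjusted p = 0.00014). Insig1 had 65.6 and 65.4 CPM against 48.1 and 43.8 CPM in KO cells (0.50, SE 0.09, adjusted p = 0.00064). Its WT libraries had 91.3 and 81.0 CPM against 65.0 and 70.2 CPM (0.34, SE 0.11, adjusted p = 0.041). That WT call was lost when any 1 of the 4 libraries was left out, without group weights and by limma-voom. For all 3 genes the groups stood clear of each other in both genotypes.

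Of the 9 genes from lanosterol to cholesterol, 4 were higher in each genotype and none lower. Tm7sf2, a sterol reductase, averaged 10.6 CPM against 13.5 CPM in KO and 11.1 CPM against 13.8 CPM in WT cells, without a call (−0.32 and −0.29). Lss had 22.9 and 26.1 CPM against 15.2 and 16.1 CPM in KO cells (0.61, SE 0.11, adjusted p = 0.0010) and 30.7 and 27.8 CPM against 21.8 and 19.4 CPM in WT cells (0.49, SE 0.14, adjusted p = 0.025). Nsdhl had 29.2 and 28.5 CPM against 22.7 and 21.9 CPM in KO cells (0.35, SE 0.095, adjusted p = 0.015) and 33.2 and 32.6 CPM against 22.6 and 22.7 CPM in WT cells (0.52, SE 0.12, adjusted p = 0.0065). Sc4mol, the C4 methyl oxidase, had 87.5 and 90.2 CPM against 72.0 and 67.4 CPM in KO cells (0.35, SE 0.08, adjusted p = 0.0055) and 84.4 and 98.3 CPM against 74.4 and 67.8 CPM in WT cells (0.36, SE 0.10, adjusted p = 0.022). These libraries did not overlap either. Cyp51, lanosterol demethylase, had 74.8 and 75.3 CPM against 59.2 and 49.8 CPM in WT cells (0.46, SE 0.13, adjusted p = 0.029); in KO cells, with 55.6 and 58.0 CPM against 47.6 and 43.9 CPM, it missed the threshold (0.31, SE 0.11, adjusted p = 0.058). In KO cells Ebp, a sterol isomerase, was higher by 0.32 (SE 0.105, adjusted p = 0.044) and Fads2, the delta-6 desaturase, by 0.80 (SE 0.25, adjusted p = 0.033), at 4.07 and 5.78 CPM against 2.46 and 2.33 CPM. The Fads2 call was kept in 3 of 10 alternatives and lost when any 1 of the 4 libraries was left out. In WT cells counting-sensitive Scd1 was higher by 1.12 (SE 0.31, adjusted p = 0.035), at 3.92 and 1.47 CPM against 0.73 and 0.66 CPM, a call kept in 3 of 10 alternatives. In pretreated KO cells Scd1 had 0 and 0.56 CPM, against 0.09 and 0 CPM.

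Sqle did not stay up: pretreated KO cells had 39.5 and 43.1 CPM, against 38.4 and 43.1 CPM (0.02, SE 0.09), and pretreated WT cells 52.1 and 50.03 CPM, against 50.9 and 46.3 CPM (0.07, SE 0.11). Stard4 gave 0.08 (SE 0.09) in KO and 0.18 (SE 0.11) in WT cells. Largest without a call were Me1 (−0.43, SE 0.20) and Fdps (0.33, SE 0.20) in KO cells, and Me1 (−0.68, SE 0.24) and Idi1 (−0.50, SE 0.55) in WT cells, where Idi1 turned to 0.34 with counting kind in the fit. The KO minus WT test called 0 of 29 members and 0% of genes by limma-trend, with 0 members, 458 higher and 403 lower genes at an unadjusted p under 0.05 and 0 members by limma-voom; without the deeper pretreated WT library it called 3. The KO count of 8 was 4 without the shallower pretreated library, 5 without the shallower unstimulated one, 3 without group weights and 2 by limma-voom. The WT count of 8 was 3 without the shallower unstimulated or the shallower pretreated library, 4 without group weights and 3 by limma-voom. Of the 8 named calls in each genotype, only those of Hmgcs1 in both genotypes and Lss in KO cells held under every alternative run. For KO cells the kind term could not change the estimates.

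**Figure D3:**
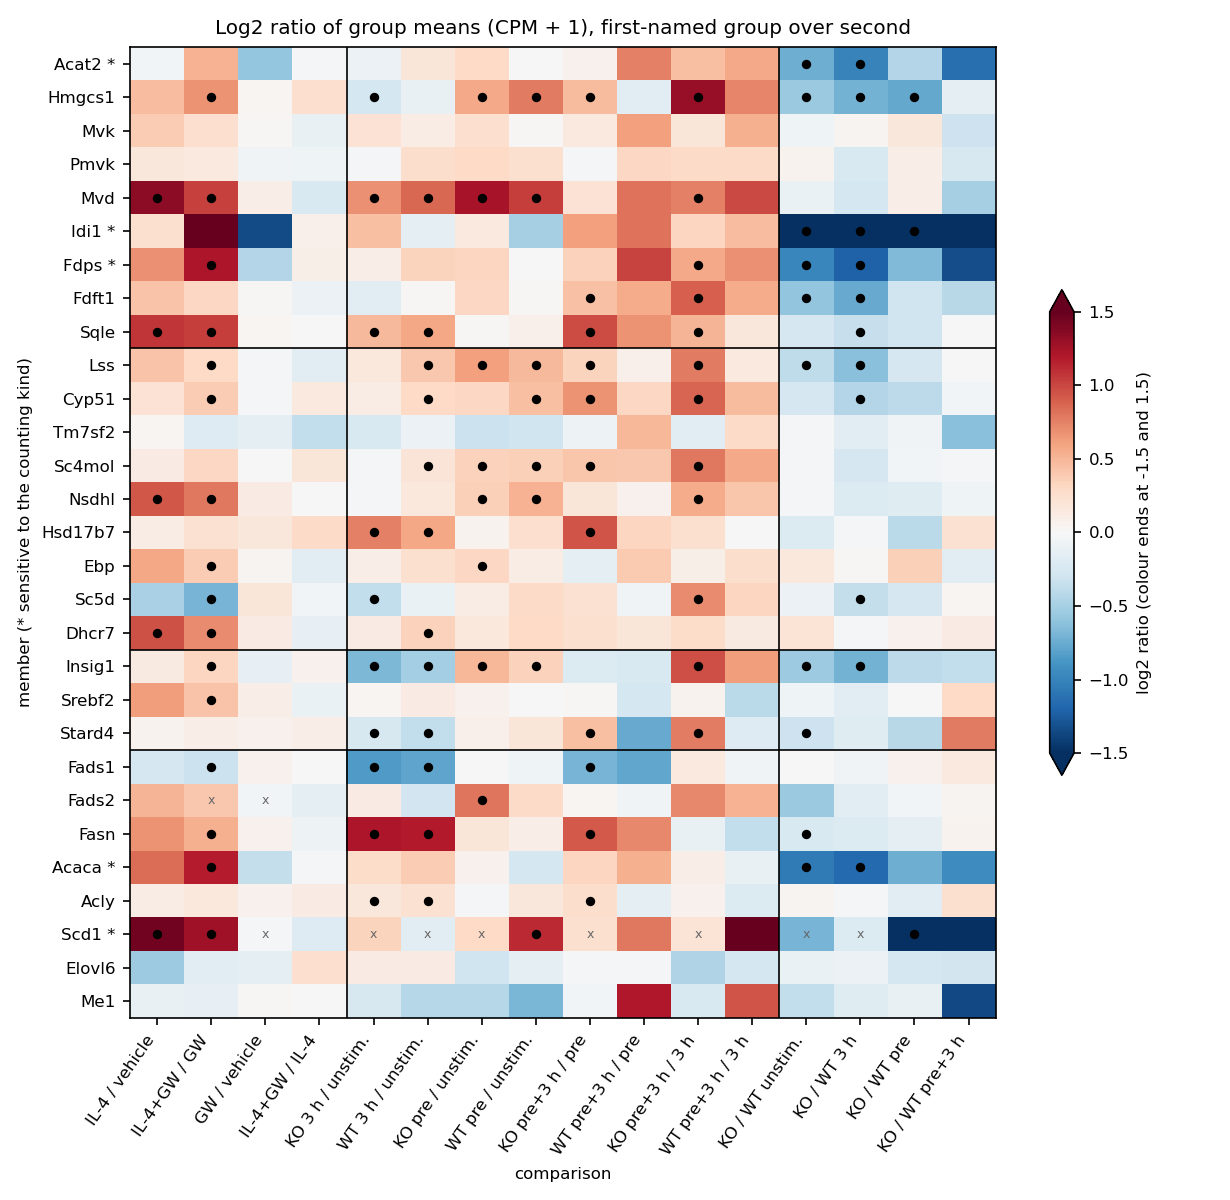
Heat map of the log2 ratio of group means after adding 1 CPM, with the 29 members in rows by role and the 16 pairs of groups in columns (red higher, blue lower in the first-named group; colours end at −1.5 and 1.5). Black dots mark an adjusted p under 0.05, crosses mark members not tested and stars mark counting-sensitive members; Mvd and Hmgcs1 are red with dots after washout in both genotypes, and Fads1 and Insig1 blue with dots at 3 h.

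Restimulated KO cells differed from first-exposed KO cells in 12 members, all higher, of 28 tested, where 12.8% of all genes were higher and 10.1% lower. The median member difference was 0.39, against 0.004 over all genes. By role, 5 of 9 mevalonate and squalene genes, 5 of 9 later sterol genes and 2 of 3 regulators were higher, and none of the fatty acid genes passed the test. Hmgcs1 had 98.7 and 86.7 CPM in restimulated cells, against 36.5 and 37.5 CPM in first-exposed cells (1.30, SE 0.09, adjusted p = 7.3e-08). Insig1 had 56.0 and 56.9 CPM, against 27.4 and 29.7 CPM (0.96, SE 0.09, adjusted p = 1.4e-06). Cyp51 had 91.1 and 90.8 CPM, against 42.1 and 56.7 CPM (0.87, SE 0.11, adjusted p = 3e-05). In each of these the restimulated libraries stood above both first-exposed ones. Fdft1, squalene synthase, had 24.7 CPM in both restimulated libraries, against 11.7 and 13.9 CPM (0.90, SE 0.14, adjusted p = 0.00017). Sc4mol had 117 and 121 CPM, against 71.7 and 65.1 CPM (0.79, SE 0.08, adjusted p = 4.1e-06). Lss was at 32.8 and 29.1 CPM, against 18.9 and 16.3 CPM (0.78, SE 0.11, adjusted p = 0.00012). These sterol genes again showed no overlap. Stard4 (0.77, SE 0.09, adjusted p = 2e-05) and Mvd (0.76, SE 0.14, adjusted p = 0.0010) were higher by a like amount. The other 4, Sc5d, Fdps, Nsdhl and Sqle, were higher by 0.51 to 0.71. Largest without a call were Fads2 (0.72, SE 0.25, adjusted p = 0.053) and counting-sensitive Acat2 (0.45, SE 0.24, adjusted p = 0.18). Fasn, at 220 and 232 CPM against 244 and 245 CPM, gave −0.11 (SE 0.08, adjusted p = 0.31). By limma-voom 7 members were called; leaving out single libraries gave 11 to 12.

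The second 3 h exposure itself, restimulated against pretreated KO cells, raised 10 members and lowered 1 of 28, where 19.3% of all genes rose and 16.5% fell. Sqle had 77.7 and 86.3 CPM in restimulated cells, against 39.5 and 43.1 CPM in pretreated cells (0.97, SE 0.09, adjusted p = 3.5e-07). Hsd17b7 had 16.2 and 14.9 CPM, against 7.18 and 8.03 CPM (0.94, SE 0.14, adjusted p = 5.5e-05). Fasn had 220 and 232 CPM, against 108 and 129 CPM (0.92, SE 0.08, adjusted p = 6.7e-08). Fads1 alone of the members fell, to 127 and 126 CPM in restimulated cells, against 192 and 219 CPM in pretreated cells (−0.70, SE 0.07, adjusted p = 1.3e-06). Groups did not overlap for any of these 4. Cyp51 rose by 0.67 (SE 0.11, adjusted p = 0.00018), Hmgcs1 by 0.48 (SE 0.09, adjusted p = 0.00067), Stard4 by 0.45 (SE 0.09, adjusted p = 0.0013) and Fdft1 by 0.44 (SE 0.14, adjusted p = 0.020). Sc4mol, Lss and Acly rose by 0.26 to 0.42. Insig1 gave −0.21 (SE 0.09, adjusted p = 0.083), and Idi1 (0.62) and Fdps (0.35) were largest without a call. Without group weights, and by limma-voom, 6 members were called.

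Set against the first exposure, the second 3 h response of KO cells was higher in 2 of 28 members and lower in none, where 0.972% of genes were higher and 0.49% lower. Hmgcs1 rose by 0.48 on the second exposure and fell by 0.26 on the first, a difference of 0.74 (SE 0.13, adjusted p = 0.0077). Stard4 rose by 0.45 and fell by 0.24, a difference of 0.69 (SE 0.13, adjusted p = 0.013). The fall of Hmgcs1 on the first exposure kept its call in 4 of 10 alternatives and lost it without any 1 of the 4 libraries, without group weights and by limma-voom. Largest without a call were Sc5d (0.59, adjusted p = 0.050) and Fdft1 (0.59, adjusted p = 0.14). Both calls were lost without the shallower pretreated KO library, without group weights and by limma-voom. Without the deeper first-exposed library 1 call was left, and 3 were made without the shallower one. With counting kind in the fit 5 were made. All KO libraries are of the low kind, so this term could change only the shared spread and not the KO estimates.

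**Figure D4:**
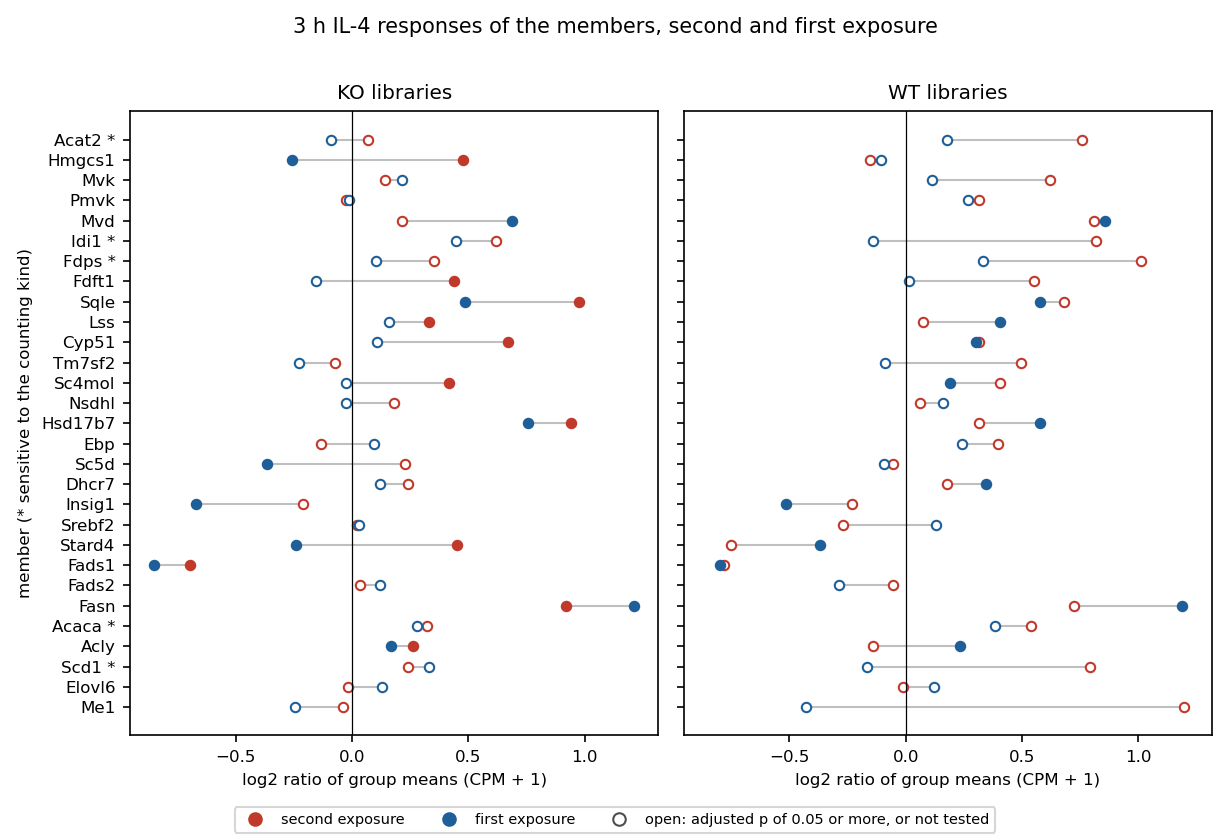
Log2 ratio of the second 3 h exposure (restimulated over pretreated, red) and of the first (first-exposed over unstimulated, blue) on the horizontal axis for each member, in KO cells on the left and WT cells on the right; filled points passed an adjusted p under 0.05. In KO cells Hmgcs1 and Stard4 have their first-exposure point left of 0 and their second-exposure point right of 0.

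In WT cells the restimulated libraries were too far apart to compare closely. Restimulated against first-exposed cells gave 0 member calls of 29, where 0.185% of genes were higher and 0.126% lower by limma-trend; 4 members passed an unadjusted p under 0.05, and limma-voom called 5. The highest members were Scd1 (7.73 and 3.07 CPM, against 0.45 and 0.58 CPM; 2.08, SE 0.80, adjusted p = 0.43) and Mvd (44.5 and 90.8 CPM, against 37.4 and 29.7 CPM; 0.99, SE 0.43, adjusted p = 0.59). The lowest were Fasn (220 and 216 CPM, against 286 and 277 CPM; −0.37, SE 0.23) and Srebf2 (−0.40, SE 0.25). Hmgcs1 had 110 and 94.1 CPM, against 65.3 and 57.1 CPM (0.73, SE 0.28, adjusted p = 0.37), with no overlap. Restimulated against pretreated WT cells also gave 0 member calls of 29, where 2.65% of genes were higher and 2.24% lower by limma-trend; 4 members passed an unadjusted p under 0.05, limma-voom called 4, and 4 were called without the deeper pretreated library. Me1 (15.2 and 4.49 CPM, against 4.72 and 2.72 CPM; 1.20, SE 0.65) and Fdps (1.01, SE 0.64) were highest. Stard4 (34.1 and 18.7 CPM, against 45.0 and 45.3 CPM; −0.75, SE 0.29, adjusted p = 0.14) and Fads1 (116 and 111 CPM, against 197 and 196 CPM; −0.78, SE 0.23, adjusted p = 0.061) were lowest, and neither overlapped. The difference of the WT responses called 0 of 29 members by limma-trend, where 0% of genes were higher and 0.0249% lower, with 1 member at an unadjusted p under 0.05 and 0 by limma-voom; 1 was called without the deeper pretreated library. The deeper library with the high fibroblast markers belongs to the restimulated WT group, whose libraries also differed by transcript length. The part of those markers and of transcript length in these values was not tested.

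KO cells stood below WT cells in 10 members and above in none of 28 tested when unstimulated, where 10.6% of all genes were lower and 7.66% higher. After the first 3 h of IL-4, 11 were lower and none higher of 28, where 7.59% of all genes were lower and 1.55% higher. After washout 3 of 29 were lower and none higher, where 1.89% of genes were lower and 1.32% higher. On restimulation limma-trend called 0 of 29, where 0.0168% of genes were lower and 0% higher; 3 members passed an unadjusted p under 0.05, limma-voom called 1, and 5 were called without group weights (1 higher and 4 lower). KO libraries are all of the low counting kind and WT libraries nearly all of the high kind, so genotype and counting kind cannot be told apart in most of these values. Leaving the 5 counting-sensitive members aside, 6, 7 and 1 calls remained, all lower.

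Hmgcs1 was lower in KO cells in 3 states. Unstimulated KO cells had 44.1 and 45.0 CPM, against 68.5 and 63.4 CPM in WT cells (−0.56, SE 0.08, adjusted p = 0.00023). First-exposed KO cells had 36.5 and 37.5 CPM, against 65.3 and 57.1 CPM (−0.71, SE 0.09, adjusted p = 0.00013), and pretreated KO cells 69.5 and 63.1 CPM, against 108 and 119 CPM (−0.77, SE 0.11, adjusted p = 0.0020). No KO library reached the WT libraries of its state. The shallower pretreated WT library is of the low kind like the KO libraries, and against it alone the difference was −0.84 for Hmgcs1, −0.99 for Scd1, −0.67 for Idi1, −0.42 for Stard4 and −0.40 for Cyp51. With counting kind in the fit Hmgcs1 kept its call in unstimulated cells (−0.70, adjusted p = 0.048) and first-exposed cells (−0.85, adjusted p = 0.012). It was the only member called there in either of these states. In the memory experiment only the pretreated WT group mixes kinds, so the kind term rests on that pair of libraries alone. For pretreated cells this fit repeats the comparison with the low-kind WT library (−0.84 for Hmgcs1 and −0.99 for Scd1) and is no separate evidence. In restimulated cells its libraries overlapped, with 98.7 and 86.7 CPM in KO and 110 and 94.1 CPM in WT cells (−0.14, SE 0.28).

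Insig1 was lower in KO cells by 0.55 when unstimulated (−0.55, SE 0.08, adjusted p = 0.00022) and by 0.70 after the first exposure (−0.70, SE 0.09, adjusted p = 0.00013). After washout it had 65.6 and 65.4 CPM in KO cells, against 91.3 and 81.0 CPM in WT cells (−0.39, SE 0.11, adjusted p = 0.061). Lss was lower by 0.38 (−0.38, SE 0.11, adjusted p = 0.022) and 0.62 (−0.62, SE 0.11, adjusted p = 0.0012) in the first 2 states, and Fdft1 by 0.59 (−0.59, SE 0.13, adjusted p = 0.0046) and 0.76 (−0.76, SE 0.14, adjusted p = 0.0011). Fdft1 shares 27.9% of its 50-base words with other genes, though it did not pass the limit for a counting-sensitive gene. Smaller calls were Stard4 and Fasn in unstimulated cells (−0.32 and −0.23) and Cyp51, Sc5d and Sqle in first-exposed cells (−0.44 to −0.34). Fads1 and Acly gave 0.01 and 0.05 in unstimulated cells, each within its SE.

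Counting-sensitive members had the widest gaps. Idi1, isopentenyl diphosphate isomerase, had 1.28 and 1.63 CPM in unstimulated KO cells, against 30.4 and 27.1 CPM in WT cells (−3.60, SE 0.43, adjusted p = 6.1e-05). In pretreated cells it had 2.03 and 1.41 CPM in KO cells, against 36.6 and 3.29 CPM in WT cells (−2.95, SE 0.57, adjusted p = 0.046), and the WT library of the low kind was the one near the KO level. Fdps (−0.98 and −1.21) and Acaca (−1.06 and −1.17) were also lower in unstimulated and in first-exposed KO cells. So was Acat2, with a log2 ratio of −0.74 in unstimulated cells and means of 11.5 CPM in KO and 24.04 CPM in WT first-exposed cells. With counting kind in the fit Acaca, Fdps and Acat2 turned to 0.06, 0.04 and 0.30 in unstimulated cells, and Idi1 and Acat2 to 0.08 and 0.003 in first-exposed cells, none of them called. Scd1 had 0 and 0.56 CPM in pretreated KO cells, against 3.92 and 1.47 CPM in WT cells (−1.53, SE 0.32, adjusted p = 0.027). Largest without a call were Fads2 (−0.56) and Me1 (−0.37) in unstimulated, Mvd (−0.26) and Sc4mol (−0.25) in first-exposed, Acaca (−0.73) and Fdps (−0.66) in pretreated, and Idi1 (−3.15) and Scd1 (−2.08) in restimulated cells. Dividing-cell markers summed to 1873 to 1953 CPM in unstimulated KO cells and 2298 to 2598 CPM in WT cells, with 5 of 10 lower (10.6% of all genes), and their part was not tested. In each group that mixes kinds the low-kind library had the lower sum, with 2027 against 2139 CPM in pretreated WT cells and 291 against 471 CPM with IL-4 for 24 h. Genotype and counting kind cannot be told apart in the KO and WT sums. Only 1 member was called with counting kind in the fit in either of the first 2 states; by limma-voom 0 were. Without group weights the counts were 2, 5 and 1 in unstimulated, first-exposed and pretreated cells. Leaving out either unstimulated WT library left 6 of 10 calls, and in pretreated cells 5 were called without the shallower WT library and 1 without the deeper one or either KO library.

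**Figure D5:**
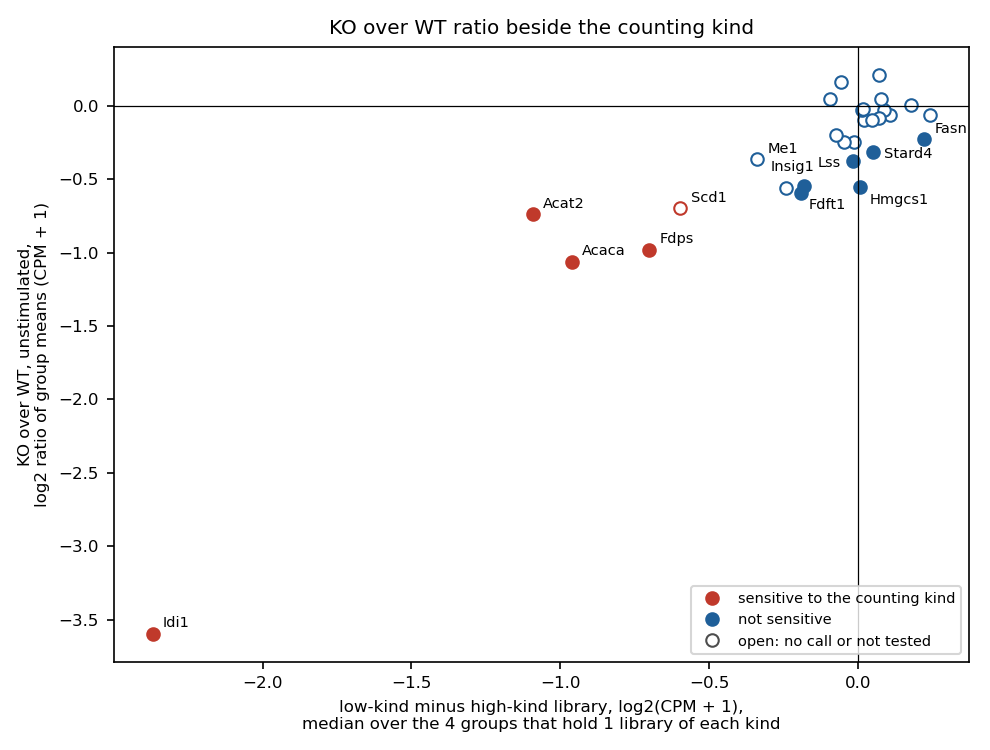
Log2 ratio of KO over WT means in unstimulated cells (vertical axis) against the difference between low-kind and high-kind libraries within groups that mix kinds (horizontal axis, log2), 1 point per member. Idi1, Acaca, Fdps and Acat2 lie low on both axes, while Hmgcs1 and Insig1 lie low on the vertical axis and near 0 on the horizontal one.

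The 24 members that are not counting-sensitive were each scaled to their own mean and SD over the 8 memory groups. Their median was lowest in unstimulated KO cells (−0.95), followed by first-exposed (−0.74), pretreated (0.06) and restimulated KO cells (0.77). In WT cells it was −0.58 unstimulated, 0.06 first-exposed, 0.26 pretreated and 0.99 restimulated. The last value rests on 2 libraries that lie far apart (weight 0.079 in the fit), and no pair with that group had a member call by limma-trend. Levels of KO and WT cells also differ in counting kind. Over the 16 pairs of groups, Hmgcs1 was called in 9, Insig1 and Lss in 8, and Mvd and Sqle in 7. Mvd was higher in all 7 of its calls. Hmgcs1 was higher in 5 and lower in 4, and Fads1 lower in all 4 of its calls. Mvk, Pmvk, Tm7sf2, Elovl6 and Me1 were called in no pair. Elovl6, a fatty acid elongase, averaged between 1.06 and 2.00 CPM in the antagonist groups and between 5.94 and 9.06 CPM in the memory groups, which were scaled separately.

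Other genes of the pathway, 26 in all with 21 or 22 tested, are given by their counts beside the share of all genes called. After 24 h of IL-4, 12 rose and 3 fell in the GW9662 arm, where 26.3% of all genes rose and 25.1% fell, and 4 rose and 1 fell against vehicle, where 9.82% rose and 8.39% fell. Scd2, a stearoyl-CoA desaturase far more abundant here than Scd1, averaged 54.2 CPM with IL-4 plus GW9662, against 10.03 CPM with GW9662 (2.32, SE 0.07, adjusted p = 3.9e-07). Srebf1, which encodes SREBP1, rose there by 0.63 (SE 0.07, adjusted p = 0.00026). After washout 8 were higher and 1 lower in KO cells (9.58% and 10.5% of all genes), and 6 were higher and 1 lower in WT cells (7.34% and 6.99%). Scd2 was higher by 1.94 (SE 0.11, adjusted p = 3.4e-09) in KO and by 1.96 (SE 0.13, adjusted p = 5.8e-08) in WT cells. Insig2, the INSIG gene that SREBP does not drive, rose at 3 h by 0.67 (SE 0.08, adjusted p = 6.6e-06) in KO and by 0.61 (SE 0.08, adjusted p = 1.4e-05) in WT cells, while Insig1 fell. At 3 h the list held 6 higher and 6 lower of 22 in KO cells, near the shares of all genes (21.5% and 22.7%), and 10 higher and 4 lower of 22 in WT cells (24.8% and 25.1% of all genes). In restimulated over first-exposed KO cells 10 were higher and 1 lower, where 12.8% of all genes were higher and 10.1% lower. Lpin1, a phosphatidate phosphatase, was the 1 gene of this list that passed the test of second minus first KO response (0.75, SE 0.15, adjusted p = 0.022). Of 12 LXR and efflux genes, 9 of 11 tested were higher in restimulated over first-exposed KO cells and none lower (12.8% and 10.1% of all genes). In KO cells 3 of them were higher and 6 lower after the first 3 h (21.5% and 22.7% of all genes), and 3 higher and 5 lower in restimulated over pretreated cells (19.3% and 16.5%). Abca1, the cholesterol exporter, fell at 3 h to a mean of 22.6 CPM in KO cells, against 212 CPM unstimulated (−3.17, SE 0.16, adjusted p = 7.5e-11). In WT cells it fell to 21.4 CPM, against 210 CPM (−3.24, SE 0.15, adjusted p = 4.7e-11).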

How the data were processed

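Sequencing of the 24 poly-A libraries was by Illumina HiSeq, per the labels' protocols. The submitters' processing notes name the mm10 genome, Cufflinks (version 2.0.2) and TopHat2 (version 2.0.7), and the role of each is not given in the sources used here. The signal values that the authors deposited are means over both samples of a group, on a scale of reads per library size (CPM), in 2 tables that were scaled separately and are never joined here. No column holds a single sample, and 0 columns of other samples were met.

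Each mean was separated into the whole read counts of a deeper and a shallower library (Python 3.11.15, numpy 2.4.6, pandas 2.3.3); 850 of 171808 values above 0 stayed unresolved and entered as 1 observation of weight 2. The separation and the tests were tested on simulated data. The main test was limma-trend (R 4.3.3, limma 3.58.1) on log2(CPM + 1), with 1 coefficient and 1 weight per group and all libraries of the table, over genes whose mean reached 1 CPM in 1 of the groups compared. Benjamini-Hochberg adjustment ran over all genes tested in each of 16 pairs of groups and 5 differences of responses. Alternatives were a pseudocount of 0.25 CPM, no filter, median centring, no weights, limma-voom on recovered reads, counting kind as a term, each library left out in turn, and, added after seeing the data, counts without counting-sensitive members. Values were named for the 8 called members of largest ratio and the 2 largest without a call in each comparison, and 12 members with most calls were given in every library. The members, the other gene lists and this rule were chosen with earlier results of these data known. Single values of some genes of the other lists are not reported here. Intervals on read counts cover counting error only.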

Additional observations from a re-analysis of the deposited data

Results flagged for a closer look

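A pair of members moved differently in the second and the first 3 h exposure of KO cells, by a test of the difference itself (limma-trend, Benjamini-Hochberg over all genes tested). The second response of Hmgcs1 was 0.74 above the first on the log2 scale (SE 0.13, adjusted p = 0.0077): both restimulated libraries (98.7 and 86.7 CPM) lay above both pretreated libraries (69.5 and 63.1 CPM), whereas both first-exposed libraries (36.5 and 37.5 CPM) lay below both unstimulated libraries (44.1 and 45.0 CPM). The second response of Stard4 was 0.69 above the first (SE 0.13, adjusted p = 0.013), with 46.4 and 45.9 CPM in restimulated and 35.4 and 31.7 CPM in pretreated cells, and with 25.6 and 27.7 CPM in first-exposed and 31.9 and 31.5 CPM in unstimulated cells. In WT cells the same difference was −0.05 (SE 0.30) for Hmgcs1 and −0.38 (SE 0.31) for Stard4, neither of them called, and KO and WT differences were not tested against each other. The first-exposure fall of Hmgcs1 (−0.26) lost its call when any 1 of the 4 libraries was left out. Both calls of the difference itself were lost without the shallower pretreated KO library, without group weights and by limma-voom. That of Stard4 was also lost without the deeper first-exposed KO library.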

How the results depend on the processing

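No paired analysis was possible because the deposited columns carry no replicate numbers. Counts of called members changed by more than 1.5 times as follows; the causes were not tested. Without group weights they became 8 for IL-4 plus GW9662 over GW9662 (16 as reported), 6 for the first exposure in both KO (10) and WT cells (12), 3 for washout in KO (8) and 4 in WT cells (8), 6 for restimulated KO over pretreated cells (11), 6 for restimulated over first-exposed WT cells (0), 7 for restimulated over pretreated WT cells (0), 2, 5, 1 and 5 for KO over WT in unstimulated, first-exposed, pretreated and restimulated cells (10, 11, 3 and 0), and 0 for second minus first KO response (2). By limma-voom on recovered reads the same comparisons gave 7, 5 and 5, 2 and 3, 6, 5, 4, then 0, 0, 1 and 1, and 0, and restimulated over first-exposed KO cells gave 7 (12). With counting kind in the fit, IL-4 over vehicle gave 10 (5), KO over WT gave 1 in unstimulated and 1 in first-exposed cells, and second minus first KO response gave 5. Between KO groups, and for the first exposure of WT cells, all libraries are of the same kind. There the term could change only the shared spread and not the estimates. In the memory experiment the size of the kind term was set by the pair of pretreated WT libraries alone. Without counting-sensitive members KO over WT gave 6, 7 and 1. With a pseudocount of 0.25 CPM, or centred libraries, restimulated over pretreated WT cells gave 1.

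Leaving out single libraries gave 0 to 4 for IL-4 over vehicle, 10 to 15 for IL-4 plus GW9662 over GW9662, 6 to 8 and 9 to 12 for the first exposure in KO and WT cells, 4 to 7 and 3 to 7 for washout in KO and WT cells, 11 to 12 for restimulated over first-exposed KO cells, 9 to 10 for restimulated over pretreated KO cells, 0 to 4 for the same in WT cells, 6 to 8, 8 to 9 and 1 to 5 for KO over WT in unstimulated, first-exposed and pretreated cells, 0 to 3 for second minus first KO response, 0 to 1 for second minus first WT response (1 without the deeper pretreated WT library), 0 to 3 for KO minus WT washout (3 without the deeper pretreated WT library), and 0 for the other comparisons.

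Signs turned for members without a call in the alternative. With counting kind in the fit, the values were 0.005 (Acat2) and 0.103 (Idi1) for GW9662 over vehicle, −0.151 (Acat2) for IL-4 plus GW9662 over GW9662, −0.052 (Acat2) for the IL-4 response with minus without GW9662, 0.344 (Idi1) for WT washout, 0.058 (Acaca), 0.038 (Fdps), 0.296 (Acat2) and 0.262 (Me1) for unstimulated KO over WT, 0.083 (Idi1), 0.003 (Acat2) and 0.137 (Mvd) for first-exposed KO over WT, and −0.201 (Idi1) for KO minus WT washout. Without the shallower vehicle library Idi1 was 0.03 for GW9662 over vehicle. Without the shallower IL-4 library Mvd was 0.214 for IL-4 plus GW9662 over IL-4, and in the response with minus without GW9662 Idi1 was −0.091, Acat2 −0.097, Dhcr7 0.006 and Mvd 0.12. Without the shallower library of cells with both agents Acat2 was −0.252 over GW9662, and the response difference was −0.038 (Idi1) and −0.153 (Acat2). Without the shallower pretreated WT library Idi1 was 0.344 for WT washout and −0.201 for KO minus WT washout.

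Of 82 named calls, 30 held under every alternative run, among them 7 of 8 for IL-4 plus GW9662 over GW9662, 6 of 8 for restimulated over pretreated KO cells and 0 of 5 for IL-4 over vehicle. For calls between KO groups, and for the first exposure of WT cells, the kind term was no check on counting kind. With 2 libraries a group, a call rests on a spread shared by all groups of a table. Scd1 and Fads2 are near the depth limit in the antagonist libraries.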

Other observations

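The 8725 genes compared had at least 5 CPM in every memory group and were neither members nor counting-sensitive. Most like the median pattern of the 24 members that are not counting-sensitive, over the 8 group means, were Scd2 (Pearson r = 0.966, 11.2 to 94.3 CPM), Gmpr (0.963), Il11ra1 (0.963), Sat1 (0.953) and Stx18 (0.952). These correlations are descriptions over 8 groups that share genotype and exposure, and the most alike of many genes are high by selection. The groups include restimulated WT cells, whose libraries lie far apart.

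Scd2 had 58.0 and 51.9 CPM with IL-4 for 24 h, against 9.17 and 9.18 CPM with vehicle, while Scd1 had 2.71 and 1.21 CPM against 0 and 0.18 CPM. In restimulated KO cells Scd2 had 89.96 and 90.71 CPM, against 20.7 CPM in both first-exposed libraries, and Scd1 had 0.23 and 0.80 CPM against 0.28 and 0.35 CPM. Scd2 libraries did not overlap in either comparison.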
